A study of Gallus gallus with 6 samples.

Results

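Surface enzymes of the mature enterocyte, the absorptive cell of the small intestine, were examined in the ileum of Taiping chickens: the disaccharidases SI, LCT, MGAM and TREH and the intestinal alkaline phosphatase ALPI. Members were chosen by gene symbol, and 3 of the 5 had a row among the 17623 genes of the table. LCT was found by the table's own symbol. SI and ALPI had no symbol there and were found through their NCBI gene IDs, 425007 and 100859876, which RefSeq pairs with these symbols; the table itself describes the ALPI row as placental alkaline phosphatase. MGAM and TREH matched no row by symbol, and MGAM none by its RefSeq gene ID, 425545, so they are not analysed here.

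RNA was sequenced from ileum, the distal segment of the small intestine, and the labels give the birds as male and 2 months old. Birds of the fructooligosaccharide group (FOS, 3 libraries) had a basal diet of corn and soybean with 1 mL of fructooligosaccharide, a chain of fructose units that host enzymes do not digest, per litre of water. Birds of the control group (CT, 3 libraries) had the basal diet alone. Whether each library stands for a bird of its own is not stated, and part of the spread that the p-values measure may therefore be technical.

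Disaccharidases are anchored in the brush border, the layer of microvilli on the enterocyte surface, and split sugars of the diet into the single sugars that transporters carry into the cell. SI cleaves sucrose and the ends of starch fragments. LCT, known in mammals as the enzyme that splits milk sugar, also splits other beta-glycosides. ALPI removes phosphate groups from molecules in the gut lumen, bacterial lipopolysaccharide among them, and is widely used as a marker of differentiated enterocytes.

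Deposited counts summed to 14668289 to 17793586 per library in FOS and to 16056240 to 18106651 in CT. The W-linked gene HINTW stood at 158, 0.0696 and 111 CPM (counts scaled to library size with TMM factors) in FOS 1 to 3 and at 146, 0.173 and 149 CPM in CT 1 to 3. Males carry no W chromosome, so 4 of the 6 libraries, FOS 1, FOS 3, CT 1 and CT 3, went against the male label. Each group thus held libraries of more than 1 bird, while which libraries share a bird is not known. Results on the members are given below also with this split as a covariate and in these 4 libraries alone. Defining markers of enterocytes were abundant in every library, with VIL1 at 1431, 1015 and 788 CPM in FOS 1 to 3 and at 858, 829.8 and 767 CPM in CT 1 to 3. The 10 exocrine pancreas markers together stayed at 1.08 to 1.40 CPM in FOS and 0.240 to 0.982 CPM in CT, and CEL was at 0 counts in all 6 libraries.

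All 3 measured enzymes had a higher mean in FOS, and none passed edgeR's test over all genes, with or without the replicate number as a block. DESeq2 with that block called all 3. That blocked fit called 0.605% of the 14547 genes it tested higher and 0.179% lower, and no label says what a replicate number marks. SI stood 2.47-fold, LCT 3.42-fold and ALPI 1.76-fold higher by the fitted fold change. ALPI differed most evenly, SI rested largely on 1 FOS library, and LCT varied most within CT. With edgeR's quasi-likelihood test the Benjamini-Hochberg adjusted p was 0.479 for SI, 0.496 for LCT and 0.479 for ALPI, so 0 of 3 were called, where 0.0217% of the 13807 genes tested were called higher and 0% lower. At an unadjusted p under 0.05 edgeR had all 3 higher, against 5.14% of all genes tested higher and 4.27% lower. DESeq2 without the block, which called 0.668% of its genes higher and 0.262% lower, and limma-voom, which called 0.00724% higher and 0% lower, called 0 of the 3 members. The members were chosen with earlier results of these data known, so this count is not independent evidence of a direction.

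SI, sucrase-isomaltase (ENSGALG00000009511), was the most abundant member per length in 4 of the 6 libraries, with its widest margin over ALPI in FOS 1. Its level was 963, 279 and 446 FPKM (fragments scaled to transcript length and library size) in FOS 1 to 3 and 282, 232 and 209 FPKM in CT 1 to 3. FOS 1 alone reached the 56th highest FPKM of all 17623 rows, while the other libraries placed SI at ranks 149 to 300. FOS 2 lay just under CT 1, so the groups overlapped by a small margin in FPKM. On the TMM scale SI stood at 5213, 1464 and 2286 CPM in FOS 1 to 3 and at 1397, 1189 and 1036 CPM in CT 1 to 3, without overlap. The log2 fold change was 1.31 (SE 0.44, 95% interval 0.28 to 2.33). Without FOS 1 it was 0.64 (SE 0.22, edgeR adjusted p = 0.482). The coefficient of variation in FPKM was 63.3% in FOS and 15.5% in CT. A second row, ENSGALG00000043872, which the table describes as an intestinal-like sucrase-isomaltase, held 0, 2 and 2 counts in FOS 1 to 3 and 0, 0 and 2 counts in CT 1 to 3 and did not pass the filter on low counts.

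LCT, lactase (ENSGALG00000012260), was the least abundant member, at 13.1, 5.25 and 18.5 FPKM in FOS 1 to 3 and 7.58, 1.76 and 2.03 FPKM in CT 1 to 3. FOS 1 and FOS 3 were high, CT 2 and CT 3 were low, and CT 1 stood above FOS 2, so the groups overlapped. These levels rest on 1190, 447 and 1912 counts in FOS 1 to 3 and on 707, 177 and 214 counts in CT 1 to 3. Its rank by FPKM ran from 4799 in FOS 3 to 11653 in CT 2. The log2 fold change was 1.77 (SE 0.65, 95% interval 0.25 to 3.30), the largest of the 3 members. Without CT 1 it was 2.75 (SE 0.53, edgeR unadjusted p = 0.00166, adjusted p = 0.885), in a fit that called 0 of all genes tested. Without FOS 3 it was 1.40 (SE 0.70, edgeR unadjusted p = 0.0922, adjusted p = 0.523). With all libraries edgeR's unadjusted p was 0.028. The coefficient of variation in FPKM was 54.2% in FOS and 86.7% in CT, and the highest library held 10.5 times the FPKM of the lowest.

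ALPI, intestinal alkaline phosphatase (ENSGALG00000007814), stood at 416, 488 and 317 FPKM in FOS 1 to 3 and at 264, 295 and 171 FPKM in CT 1 to 3. Every FOS library lay above every CT library in both FPKM and CPM. In CPM the groups did not overlap for SI and ALPI, 2 of 3 members, where 8.58% of all genes tested had FOS higher without overlap and 7.84% had FOS lower. The log2 fold change of ALPI was 0.81 (SE 0.25, 95% interval 0.22 to 1.40). It was the smallest of the members, as was the coefficient of variation in FOS, at 21.0%, against 26.4% in CT. Reads that ALPI may share with near copies could be split by the authors' counting. RefSeq lists a neighbouring relative, ALPPL, whose gene ID matched no row.

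**Figure D1:**
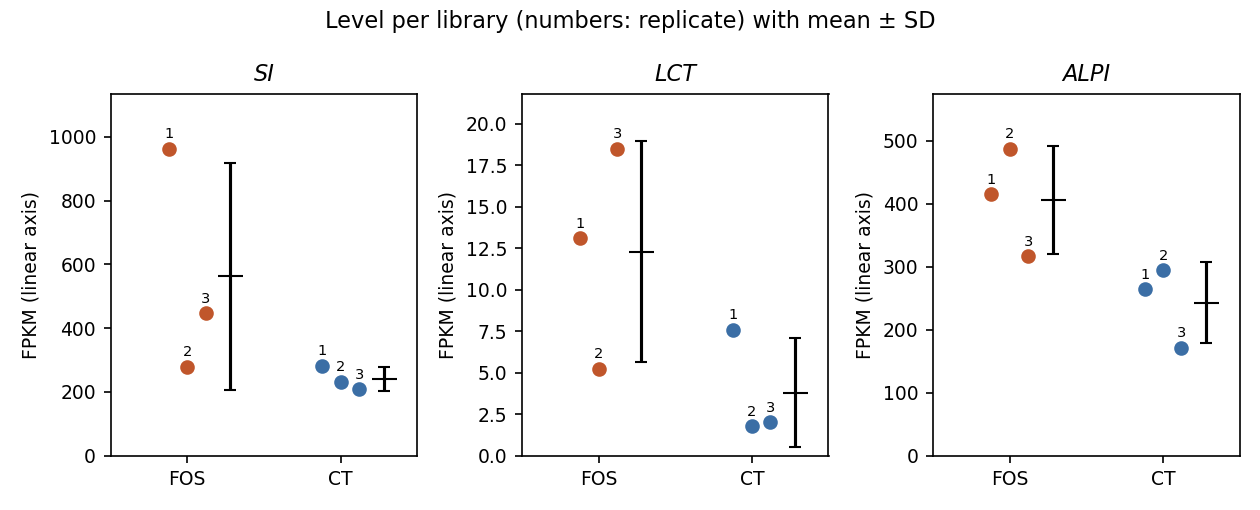
Level of SI, LCT and ALPI in each library in FPKM on linear axes that start at 0; points are libraries with their replicate number, and bars give the mean and SD of 3 libraries. FOS 1 stands at 963 FPKM for SI, CT 1 lies above FOS 2 for LCT, and the groups do not overlap for ALPI.

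Mean levels per length ordered the members SI, ALPI and LCT in FOS, at 563 ± 356, 407 ± 85.6 and 12.3 ± 6.66 FPKM (SD, n = 3). In CT, SI and ALPI stood close together at 241 ± 37.4 and 243 ± 64.2 FPKM and LCT at 3.79 ± 3.29 FPKM (SD, n = 3). SI and ALPI did not differ beyond their spread in either group. The log2 ratio of SI to ALPI in FPKM was 1.21, -0.80 and 0.49 in FOS 1 to 3 and 0.10, -0.35 and 0.29 in CT 1 to 3, so ALPI was the higher of the pair in FOS 2 and CT 2. LCT lay below both in every library.

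The members did not share 1 pattern over the libraries. FOS 1 was highest for SI, FOS 3 for LCT and FOS 2 for ALPI, while CT 3 was lowest for SI and ALPI and CT 2 for LCT. Between libraries with the same replicate number, FOS minus CT in log2 CPM was 1.90, 0.30 and 1.14 for SI in pairs 1 to 3. It was 0.92, 1.60 and 3.23 for LCT and 0.79, 0.76 and 0.94 for ALPI. All 9 of these differences were positive, and those of ALPI were nearly equal. For SI and ALPI, whose groups did not overlap in CPM, any pairing of FOS with CT libraries would give positive differences. With the replicate number as a block, the edgeR adjusted p was 0.484 for SI, 0.469 for LCT and 0.326 for ALPI. DESeq2 with the same block called all 3 higher, with adjusted p of 0.0099 for SI, 0.000154 for LCT and 2.07e-05 for ALPI, where it called 0.605% of the 14547 genes it tested higher and 0.179% lower. DESeq2 without the block gave 0.0649, 0.422 and 0.0968. With the W-linked split as a covariate the log2 fold change was 1.19, 1.74 and 0.82 for SI, LCT and ALPI, and in the 4 libraries with W-linked transcripts 1.62, 1.80 and 0.84. The edgeR adjusted p then lay between 0.536 and 0.573.

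**Figure D2:**
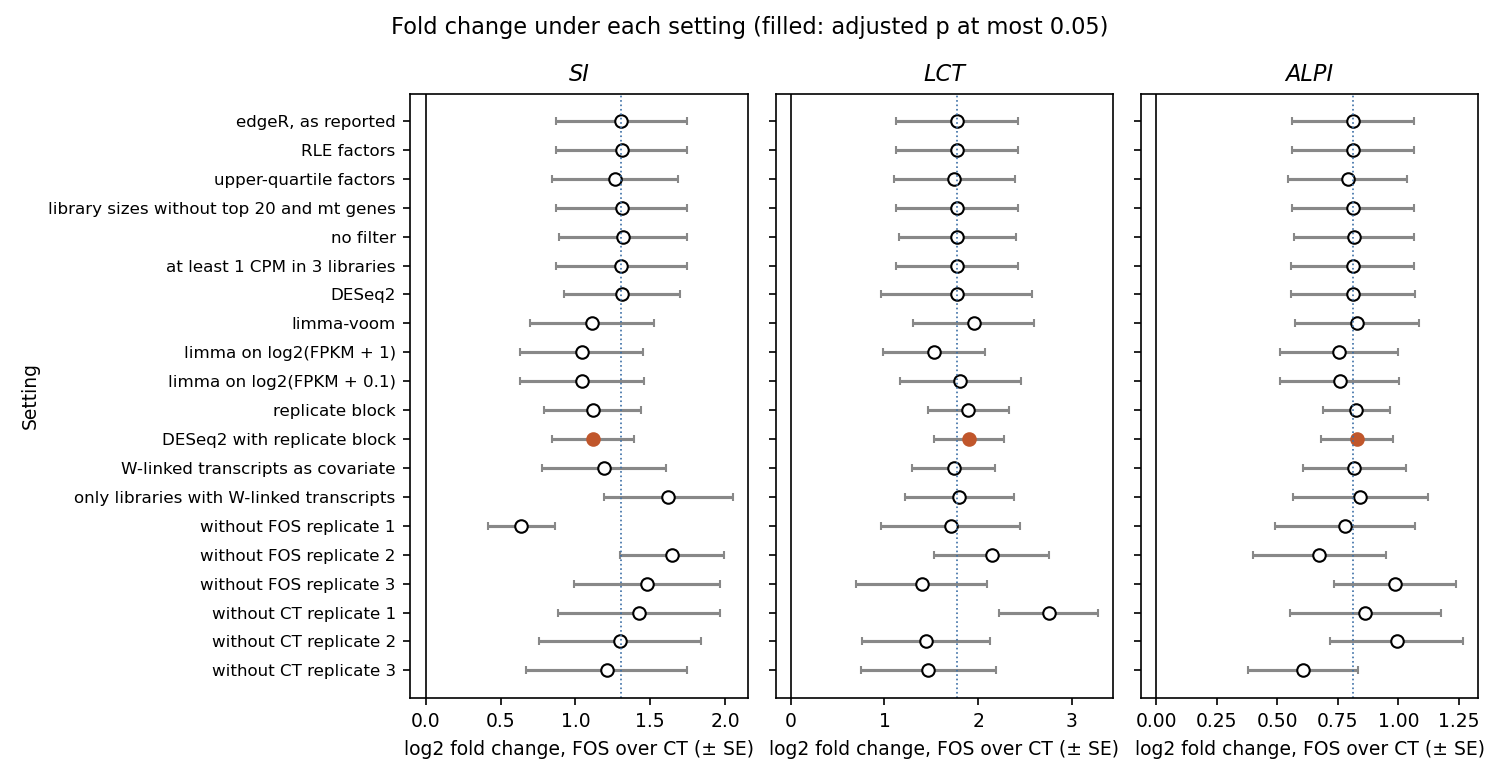
Log2 fold change of FOS over CT with its SE for SI, LCT and ALPI under the reported setting and each of 19 alternatives; filled points have an adjusted p at most 0.05. All points lie above 0, those of DESeq2 with the replicate block are filled, and SI is lowest without FOS replicate 1 at 0.64.

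The likeness of a gene to a member was measured as the root mean square difference in log2 CPM over the 6 libraries, after each gene was centred on its own mean, among 11635 other named genes with at least 1 CPM on average. Nearest to SI were ABCC2, an export pump for conjugated compounds, at 0.22, a locus that the table names MUC5AC, a mucin, at 0.23, and SLC5A1 at 0.25, where the median gene stood at 0.81. SLC5A1, the sodium-coupled transporter that takes up glucose and galactose, stood at 2459, 920.2 and 1089.7 CPM in FOS 1 to 3 and at 896, 883 and 703 CPM in CT 1 to 3. FOS 1 was highest for all 4 genes, but those beside SI were chosen for their likeness to it over these same libraries. Nearest to LCT were MAEL at 0.33, TOGARAM2 at 0.59 and URAH at 0.63, where the median gene stood at 1.30. TOGARAM2 and URAH rest on few counts, 7 to 32 and 2 to 56 per library. Nearest to ALPI were 2 assembled loci that the table names STAP2, an adaptor protein, at 0.09 and BTN1A1, a butyrophilin, at 0.11, with NKIRAS1 at 0.17, where the median gene stood at 0.56. Between members the distance was 0.84 for SI and LCT, 0.64 for SI and ALPI and 1.11 for LCT and ALPI. By rank among the 11635 genes, SI was number 18 from LCT and ALPI number 473. From SI, ALPI was number 1109 and LCT number 6639. From ALPI, SI was number 8000 and LCT number 11465.

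**Figure D3:**
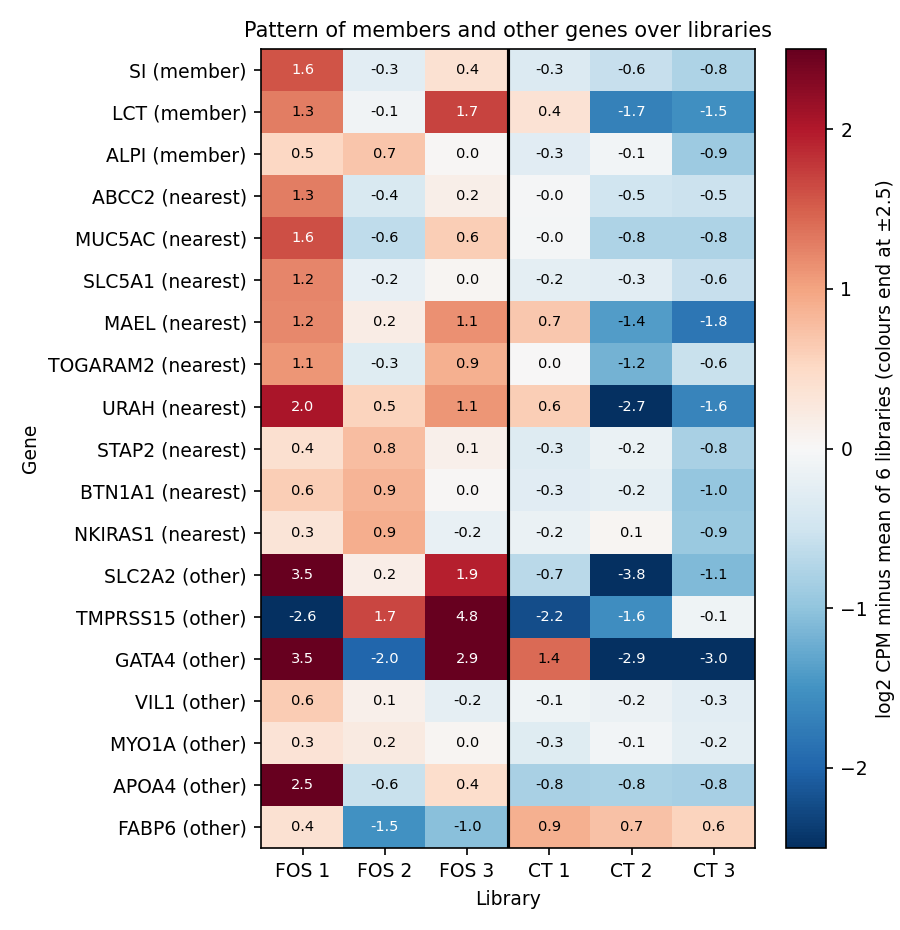
Log2 CPM of each gene minus its mean over the 6 libraries, with the 3 members on top, the 3 genes nearest to each below them, and other genes given in the text under these; red is above the gene's mean and blue below it. SI is highest in FOS 1, LCT in FOS 1 and FOS 3, and ALPI in FOS 2.

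Genes that act after the disaccharidases were set beside them. Of 12 sugar transporters 11 were tested, 0 were called by edgeR, 2 were higher and 1 lower at an unadjusted p under 0.05 (5.14% and 4.27% of all genes tested), and the median log2 fold change was 0.18, against 0.007 over all genes tested. SLC2A2, which passes glucose, galactose and fructose across the basal membrane, stood at 33.4, 3.27 and 11.2 CPM in FOS 1 to 3 and at 1.80, 0.173 and 1.33 CPM in CT 1 to 3. Both groups lay apart, with FOS 1 the highest library, as for SI. The log2 fold change was 0.48 (SE 0.17) for SLC5A9 and 0.56 (SE 0.27) for SLC5A11, both sodium-coupled sugar transporters, and the facilitative transporter SLC2A3, which the table names SLC2A14, had -0.31 (SE 0.12). The edgeR adjusted p of these 5 transporters, SLC5A1 included, ran from 0.434 to 0.566.

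Glycosidases that work inside the cell and other relatives of the disaccharidases had 15 tested rows and 0 calls. At an unadjusted p under 0.05 they had 2 higher and 1 lower, against 5.14% and 4.27% of all genes tested. Their median log2 fold change was 0.08. Among lysosomal enzymes the log2 fold change was 0.52 (SE 0.20) for HEXA and 0.33 (SE 0.23) for GLB1, the lysosomal beta-galactosidase. MANBA, the lysosomal beta-mannosidase, had -0.49 (SE 0.13) and was lower in FOS without overlap. Among other phosphatases and phosphohydrolases 13 were tested and 0 called, 1 was higher and 1 lower at an unadjusted p under 0.05, and the median was 0.10. ALPL, the alkaline phosphatase of bone, liver and kidney, stood at 7.02, 9.61 and 9.20 CPM in FOS 1 to 3 and at 12.9, 12.9 and 13.1 CPM in CT 1 to 3. Its FOS libraries all lay below its CT libraries, the opposite of ALPI (log2 fold change -0.59, SE 0.18, edgeR adjusted p = 0.479). The ratio of ALPI to ALPL in FPKM was 100.2, 83.1 and 55.1 in FOS 1 to 3 and 31.8, 36.5 and 20.3 in CT 1 to 3. ENTPD8, which splits nucleotides at the cell surface, had a log2 fold change of 1.09 (SE 0.45) and overlapping groups, and of 0.41 without FOS 2, its highest library. ENPP7, which digests sphingomyelin, had 1.61 (SE 1.05) and overlapping groups, with 3.05 without CT 1 and 1.04 without CT 2. ENPP6, which splits choline lipids, had 0.27 (SE 0.14).

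Other brush border enzymes had 17 tested members, 1 called higher and 0 lower, 2 higher and 0 lower at an unadjusted p under 0.05, and a median of 0.31. Over all genes tested 0.0217% were called higher, and 5.14% were higher and 4.27% lower at an unadjusted p under 0.05. The call was ASAH2, the ceramidase of the brush border, at 45.9, 41.5 and 64.4 CPM in FOS 1 to 3 and 8.77, 7.40 and 7.94 CPM in CT 1 to 3 (log2 fold change 2.65, SE 0.20, edgeR adjusted p = 0.00917). Without any 1 of the CT libraries it lost the call, at edgeR adjusted p of 0.075 to 0.153, while the log2 fold change stood at 2.60 to 2.72. ANPEP, aminopeptidase N and the most abundant of the list, had a log2 fold change of 0.48 (SE 0.21) and overlapping groups. The groups also overlapped for the peptidases MEP1A, at 0.22 (SE 0.43), and FOLH1, at 0.47 (SE 0.26). Genes of microvillus and enterocyte structure had 21 tested rows, of which 0 were called, 6 were higher and 0 lower at an unadjusted p under 0.05 (5.14% and 4.27% of all genes tested), and all 21 had a positive log2 fold change (median 0.37), against 51.1% of all genes tested. On the log2 fold change scale EPS8L3 stood at 0.53 (SE 0.14). Of the proteins that bind or bundle actin in microvilli, MYO1A stood at 0.41 (SE 0.14) and PLS1 at 0.48 (SE 0.16). The adhesion protein EPCAM stood at 0.34 (SE 0.22), and 2 loci of the keratin KRT8 at 0.58 (SE 0.18) and 0.44 (SE 0.17).

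**Figure D4:**
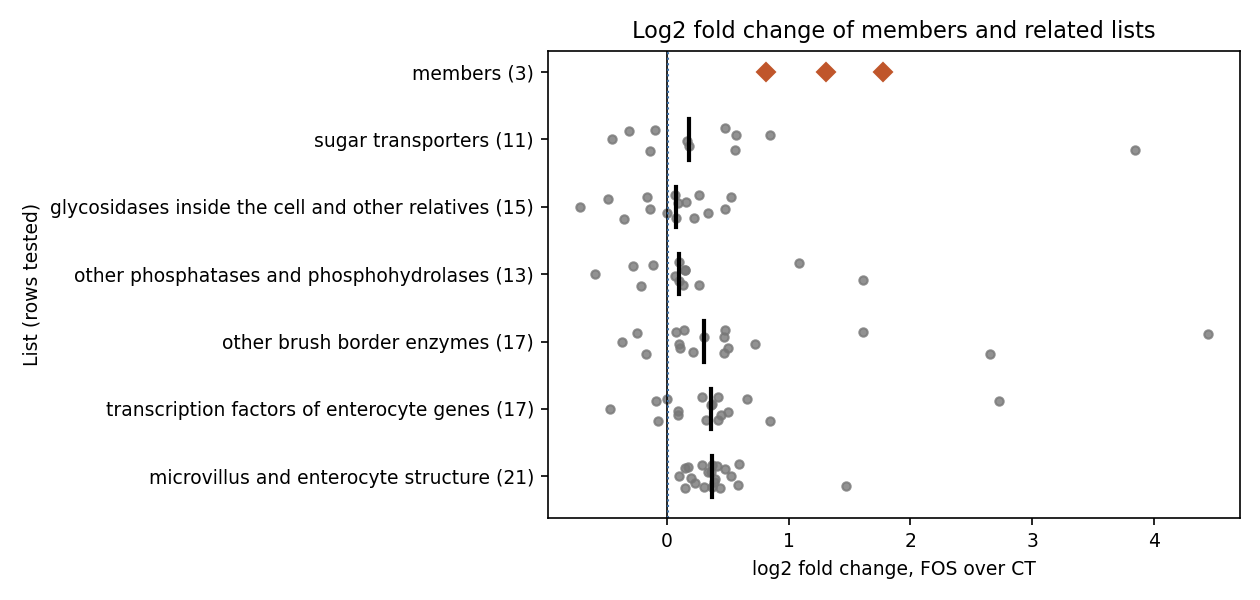
Log2 fold change of FOS over CT for the 3 members (diamonds) and the tested rows of each related list (points), with the list median as a bar and the median of all genes tested as a dotted line near 0. The members lie at 0.81, 1.31 and 1.77, and all 21 points of microvillus and enterocyte structure lie above 0.

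Set against the mean log2 CPM of that structure list, the members still had a higher mean in FOS, but no member's groups stayed apart. SI stood above the list mean by 3.80, 2.19 and 2.84 log2 units in FOS 1 to 3 and by 2.48, 2.03 and 2.14 in CT 1 to 3. ALPI stood above it by 0.87, 1.28 and 0.63 in FOS 1 to 3 and by 0.67, 0.66 and 0.14 in CT 1 to 3. LCT differed from it by -2.22, -3.37 and -1.57 in FOS 1 to 3 and by -2.56, -4.83 and -4.36 in CT 1 to 3. The difference between the group means was 0.73 for SI, 0.44 for ALPI and 1.53 for LCT, where the mean log2 CPM itself differed by 1.11 for SI, 0.83 for ALPI and 1.92 for LCT. In whole tissue, more enterocytes and more RNA of a gene per enterocyte cannot be told apart.

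Marker lists of enterocytes and of other cells are given beside the members. The 12 enterocyte markers summed to 20457 to 22807 CPM in FOS and 13984 to 18415 CPM in CT. All 12 had a positive log2 fold change, against 51.1% of all genes tested. Of these, 0 were called by edgeR and 2 were higher at an unadjusted p under 0.05, against 5.14% of all genes tested. The list is not independent of those above, as VIL1, EPCAM, CDH17, CDHR5 and MYO1A are also in the structure list. ANPEP and SLC5A1 are in other lists above. ANPEP made up the largest part of each sum. The mean log2 CPM of the list overlapped, at 10.42, 9.66 and 9.88 in FOS 1 to 3 and 9.5, 9.76 and 9.27 in CT 1 to 3. The 11 smooth muscle markers summed to 4587, 6723 and 7600.1 CPM in FOS 1 to 3 and to 8839, 6385 and 9103 CPM in CT 1 to 3. All had a negative log2 fold change (median -0.36), and 0 were called by edgeR. At an unadjusted p under 0.05, 1 was lower, against 4.27% of all genes tested. FOS 1, the highest library for SI, was the lowest for smooth muscle. CT 3, the lowest library for SI, was the highest for smooth muscle. Between these ends the order was not kept throughout, as CT 2 lay below FOS 2 and FOS 3 for both smooth muscle and SI. LCT was highest in FOS 3 and lowest in CT 2, and ALPI was highest in FOS 2, libraries between these ends for smooth muscle. ALPI, like SI, was lowest in CT 3. T cell markers had a positive log2 fold change in 1 of 9 tested rows, and fibroblast markers in 1 of 9. It was 2 of 6 for macrophage, 2 of 7 for B and plasma cell and 3 of 8 for crypt and cycling markers. For goblet markers it was 3 of 6 and for enteroendocrine markers 9 of 10, where 51.1% of all genes tested were positive. None of these was called by edgeR. At an unadjusted p under 0.05, 2 T cell, 3 fibroblast, 1 crypt and cycling and 1 goblet marker were lower. At that threshold 1 goblet and 2 enteroendocrine markers were higher, against 5.14% higher and 4.27% lower over all genes tested. The part of these cell types in the members' values was not tested.

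Transcription factors known for genes of the enterocyte had 17 tested rows, 0 called, 6 higher and 0 lower at an unadjusted p under 0.05, against 5.14% and 4.27% of all genes tested, and a median of 0.37. The intestinal homeobox factor CDX2, which binds the SI promoter in mammals, had 2 assembled loci. MSTRG.2017 had a log2 fold change of 0.85 (SE 0.24) without overlap, and MSTRG.2016 had -0.47 (SE 0.93). GATA6 had 0.50 (SE 0.11), KLF5 0.32 (SE 0.12) and CDX1 0.44 (SE 0.17), with edgeR adjusted p from 0.414 to 0.508. GATA5 had 0.42 (SE 0.22) and overlapping groups. GATA4, a zinc finger factor of the proximal small intestine in the mouse, was chosen after its values were seen. It stood at 26.1, 0.557 and 17.2 CPM in FOS 1 to 3 and at 6.13, 0.289 and 0.266 CPM in CT 1 to 3.

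Genes whose level changes along the small intestine also differed between libraries. Of the proximal list, TMPRSS15, the enteropeptidase, stood at 0.540, 11.1 and 100.4 CPM in FOS 1 to 3 and at 0.721, 1.16 and 3.20 CPM in CT 1 to 3. APOA4, an apolipoprotein of lipid-absorbing enterocytes, stood at 493, 57.5 and 114 CPM in FOS 1 to 3 and at 47.9, 48.5 and 47.6 CPM in CT 1 to 3. FABP6, the ileal bile acid carrier of the distal list, stood at 4000.5, 1078.5 and 1505 CPM in FOS 1 to 3 and at 5753, 5155 and 4527 CPM in CT 1 to 3. The proximal list of 7 rows summed to 1679, 1031 and 1419.5 CPM in FOS 1 to 3 and to 856, 1069.8 and 730.2 CPM in CT 1 to 3, and the distal list of 7 rows to 4844, 1689 and 2111 CPM in FOS 1 to 3 and to 6269.9, 5741 and 5067 CPM in CT 1 to 3. FABP6 made up most of each distal sum, and FABP1, also among the enterocyte markers, most of each proximal sum. Of the proximal list SLC40A1 had a negative log2 fold change, -0.26 (SE 0.24). The other genes of the distal list, 6 of 7, had a positive log2 fold change, and the list median was 0.24. Within these lists 0 genes passed with edgeR. Over all genes tested 5.14% were higher and 4.27% lower at an unadjusted p under 0.05. At that threshold the proximal list, with 6 rows tested, had 2 genes higher, TMPRSS15 and APOA4. The distal list, with 7 rows tested, had 1 lower, FABP6, and 1 higher. The higher one was AMN, a part of the receptor for vitamin B12 bound to its carrier, with a log2 fold change of 0.70 (SE 0.21). APOA4, FABP6 and AMN were chosen after their values were seen. The labels give no position along the ileum for the samples, and its part in the members' values was not tested.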

How the data were processed

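RNA of 6 ileum libraries was profiled, 3 FOS and 3 CT, grouped by sample titles. Tools named in the submitters' processing notes are DESeq2, StringTie, HISAT2, Bowtie2 and fastp 0.18.0, without their order or use. How reads were counted, and on which genome build, is not given in the sources used here. For this reason the text prints neither coordinates nor sequences. The authors deposited expected counts (estimated counts, 8.06% of values not whole at a tolerance of 1e-09) and FPKM per gene, per the file headers. Another 12 value columns belong to libraries not described and were not used.

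Counts were rounded, and filterByExpr kept 13807 of 17623 genes. The test was edgeR 4.0.16's quasi-likelihood test in R 4.3.3 after TMM scaling, Benjamini-Hochberg adjusted over all genes, and calls were made at an adjusted p of at most 0.05. Dividing a log2 fold change by the root of F gave its SE, from which the 95% interval was taken with 7.32 degrees of freedom. The table names 12776 rows, and RefSeq (assembly GRCg7b) names 1140 more by their NCBI gene ID; 189 of 210 list genes were found. Simulated counts for FOS against CT with 13807 genes had 16.4% of 1.5-fold changes, 42.3% of 2-fold changes and 95.2% of 4-fold changes called by edgeR. DESeq2 called 17.9%, 57.7% and 93.5% of these changes, with 18 false calls against 5 with edgeR. The members and lists were chosen with earlier results of these data known. Named genes were the members, the 4 smallest unadjusted p and the 2 highest mean FPKM of each list up to 30 genes, and the 3 genes nearest to each member; 3 genes so chosen are not reported here.

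Same-numbered libraries deviated together from their group means (correlations 0.247, 0.436 and 0.225 over genes). Deviations of 3 libraries from their mean sum to 0, so these 3 values depend on each other. In log2 CPM, FOS 3 correlated about as well with CT 1 (0.9639) as with CT 3 (0.9654). The numbers come from the sample titles, and no label says what a number marks. Pair 2, with the highest correlation, was also the pair without W-linked transcripts, so a block by replicate number also holds the W-linked split. The planned fit had no block. Alternatives were RLE and upper-quartile factors, other library sizes, 2 filters, DESeq2 1.42.0, limma-voom and limma 3.58.1 on log2(FPKM + 1) and log2(FPKM + 0.1), the block, the W-linked split, and each library left out in turn.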

Additional observations from a re-analysis of the deposited data

How the results depend on the processing

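The log2 fold changes of SI, LCT and ALPI were positive under all 19 alternatives, at 0.64 to 1.65, 1.40 to 2.75 and 0.61 to 0.99, and these extremes came from leaving out 1 library each. None of the 3 was called by edgeR, by DESeq2 without the block, or by limma. DESeq2 with the replicate block gave 1.12 (adjusted p = 0.0099) for SI, 1.90 (adjusted p = 0.000154) for LCT and 0.83 (adjusted p = 2.07e-05) for ALPI and so called 3 members, and the cause was not tested. The edgeR fit with the replicate block gave 1.12, 1.90 and 0.83 and changed no call among the members. Its SE was 0.325, 0.43 and 0.138 for SI, LCT and ALPI, against 0.273, 0.37 and 0.149 with DESeq2 and the block. The unadjusted p of these block fits was 0.0131, 0.00413 and 0.000827 with edgeR's test. With DESeq2's test it was 4.33e-05, 2.75e-07 and 2.56e-08.

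Over all genes edgeR called 3, DESeq2 135, DESeq2 with the replicate block 114 and limma-voom 1, and edgeR called 0 to 4 with 1 library left out. For 40 other genes in the text, 781 of 797 recomputed values kept their direction and side of the threshold. ASAH2 lost its call with limma-voom (adjusted p = 0.0567), in the 4 libraries with W-linked transcripts (adjusted p = 0.127) and without any 1 CT library. DESeq2 called BTN1A1 and GATA6, and with the replicate block BTN1A1, FABP6, MAEL, MUC5AC and SLC2A2. With 1 library left out, the direction turned for the CDX2 locus MSTRG.2016 without FOS 3 (0.048) and without CT 2 (0.14), in a range of -1.30 to 0.14. It turned for MEP1A without FOS 2 (-0.018) and without CT 1 (range -0.039 to 0.56); none of these was called. With 3 libraries a group, edgeR called 42.3% of 71 genes simulated with a 2-fold change and 95.2% of 62 with a 4-fold change. These shares are not given for genes at the level or spread of a member. They therefore do not tell how likely a change in SI, LCT or ALPI was to be missed.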
